A study of Mus musculus with 6 samples.

Results

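The EGR, NR4A and IER immediate early genes and Srf, the gene of serum response factor, were examined in stretched C2C12 cells. The members were the 10 rows of the deposited table whose symbol was Egr1, Egr2, Egr3, Egr4, Nr4a1, Nr4a2, Nr4a3, Ier2, Ier3 or Srf, out of 22375 rows. The C2C12 line is made up of mouse myoblasts, which fuse into muscle fibers. Transcripts were sequenced in 3 libraries of the CON group, from cells without stretching, and 3 libraries of the 4H group, from cells under cyclic stretch at 15% elongation for 4 h. Per the methods of the study, cells were grown in serum-containing medium and seeded on poly-lysine-coated elastic plates before stretching. The labels name no genetic change or drug in either group, and shorter stretching times were not analysed here. The labels call the libraries of a group separate biosamples but do not say that they came from separate cultures, so p values measure only the spread between these libraries. The levels are FPKM, fragment numbers scaled to transcript length and library size. Comparison between genes and between libraries is approximate. FPKM summed to 395790 to 397260 in the CON libraries and to 385146 to 387516 in the 4H libraries.

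Immediate early genes are switched on in cells within minutes of a stimulus, without new protein synthesis. The EGR proteins are zinc finger transcription factors, the NR4A proteins are orphan nuclear receptors that work without a known hormone, and the IER genes share a name for their rapid induction. SRF binds the CArG box in the promoters of many of these genes, either with ternary complex factors such as ELK1, which answer to ERK signaling, or with the MRTF coactivators, which answer to actin dynamics. NR4A promoters are a textbook target of CREB, which binds the cAMP response element (CRE). In muscle, NR4A1 is known for the control of glucose metabolism genes, EGR3 for muscle spindle development and SRF for actin genes.

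In the 4H group, 7 of the 8 members that could be tested rose. A gene was tested when its mean over the 6 libraries reached 0.5 FPKM, and it rose or fell when limma on log2(FPKM + 0.5) gave a Benjamini-Hochberg adjusted p of at most 0.05 over the 11593 genes tested, of which 22.6% were higher in the 4H group by this rule. The 5 members Egr2, Egr3, Nr4a1, Nr4a2 and Ier3 also had a log2 fold change of at least 1 and were thereby differentially expressed, where 2.61% of all genes tested were differentially expressed and higher. The median log2 fold change of the 8 members was 1.21, against -0.01 for all genes tested. Ier2 did not pass the test, and Egr4 and Nr4a3 were below the filter. All 4H libraries lay above all CON libraries in those 7 tested members, as in 27.5% of all genes tested, where 29.2% lay the other way round.

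**Figure D1:**
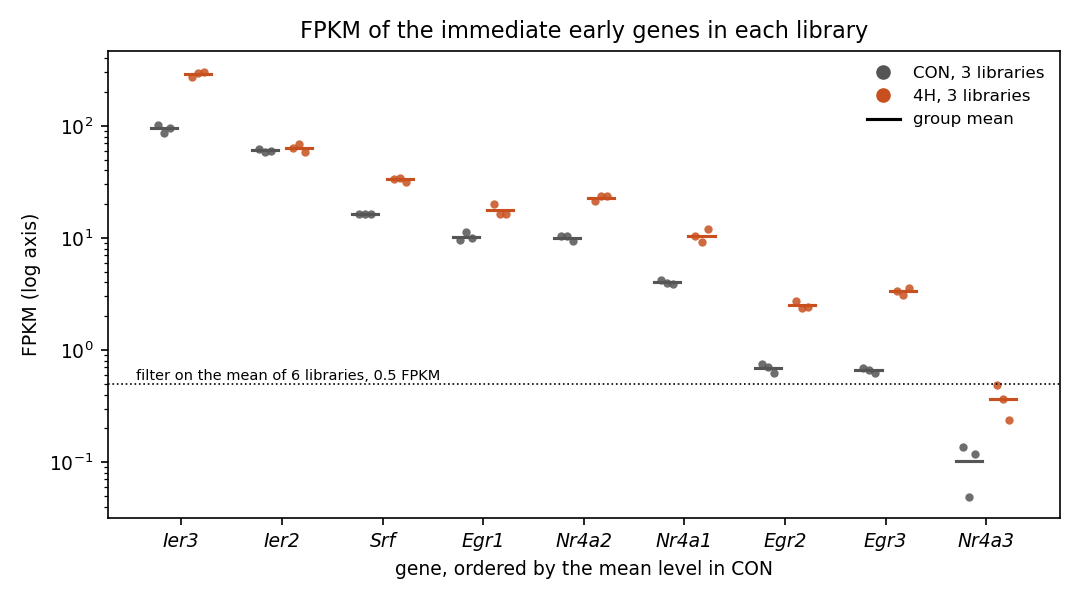
FPKM of 9 members in each of the 3 CON (gray) and 3 4H (orange) libraries on a log axis, with a line at each group mean; Egr4, at 0 in 5 of 6 libraries, is left out. The 4H points lie above the CON points for every gene drawn except Ier2, from Nr4a3 at 0.0491 to 0.488 FPKM up to Ier3 at 86.7 to 302.4 FPKM.

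Gene positions are those of GENCODE M21 on GRCm38. Egr3 (chr14:70077203-70082614), an EGR factor known from muscle spindles, had the highest log2 fold change of the members, although Ier3 was above it with a pseudocount of 1 (1.60 against 1.39) and with quantile normalization (1.64 against 1.63). It was at 0.684, 0.663 and 0.625 FPKM without stretching and at 3.38, 3.08 and 3.59 FPKM after 4 h of stretch. The lowest 4H value was thus well above the highest CON value. The ratio of the group means was 5.09, and the log2 fold change was 1.73, with a standard error of 0.10 and a limma adjusted p of 5.16e-06, which ranked 70 among the genes tested. Adding 0.5 before taking logs makes the change of a gene this low look smaller, and the log2 ratio of the means was 2.35.

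Egr2 (chr10:67535475-67542188), known for its role in myelinating Schwann cells, was at 0.745, 0.706 and 0.624 FPKM without stretching and at 2.71, 2.38 and 2.41 FPKM after 4 h of stretch, again without overlap. Its log2 fold change was 1.33, with a standard error of 0.11 and a limma adjusted p of 3.12e-05, and the ratio of the means was 3.61. Egr1, the most abundant EGR gene, was at 9.60, 11.2 and 10.1 FPKM without stretching and at 20.1, 16.4 and 16.4 FPKM after 4 h of stretch. The first 4H library was the highest, and the other two lay close together, all above the CON libraries. Egr1 rose by a log2 fold change of 0.75, with a standard error of 0.09 and a limma adjusted p of 0.00031, a ratio of 1.71, and did not reach the fold threshold in any of the 16 settings tried. Without 4H replicate 1 its log2 fold change was 0.65. Egr4 was listed at 0 in 5 libraries and at 0.0276 FPKM in 4H replicate 1, too low to compare.

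The makeup of the EGR family differed between the groups. Its summed level was 11.6 ± 0.81 FPKM in CON against 23.5 ± 2.39 FPKM in 4H (mean ± SD, n = 3 libraries each). Egr1 made up 88.4 ± 1.15% of the sum in the CON group and 74.95 ± 1.75% in the 4H group, while Egr3 made up 5.67 ± 0.48% and 14.4 ± 1.60%, and Egr2 5.97 ± 0.69% and 10.7 ± 0.30% (SD, n = 3). Within each library, the ratio of Egr3 to Egr1 was between 0.0593 and 0.0713 in the CON group and between 0.168 and 0.219 in the 4H group. These shares and ratios are given as a description, with no test.

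**Figure D2:**
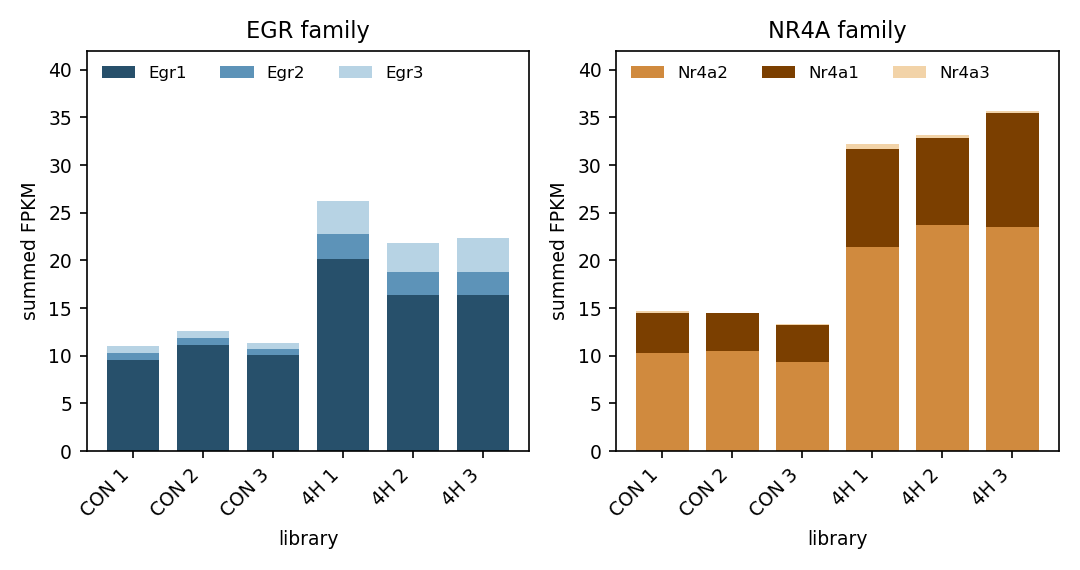
Summed FPKM of the EGR family (left) and the NR4A family (right) in each library, stacked by gene; Egr4, at most 0.0276 FPKM, is not drawn. The EGR sum lay between 11.0 and 12.6 FPKM in CON and between 21.8 and 26.2 FPKM in 4H, and the NR4A sum between 13.3 and 14.7 and between 32.2 and 35.7 FPKM.

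Sequence upstream of Egr2 is shown because it holds a CArG box and CRE-like elements side by side. The promoter windows are those of RefSeq on GRCm38.p6 (mm10, the build in the submitters' processing notes). They run from 250 bases before to 50 bases after a transcript start. Windows were at hand for 7 of the 10 members, and the other members were not searched. The stretch is chr10:67537619-67537868, plus strand, and lies inside the Egr2 gene before one of its RefSeq starts, outside all exons of GENCODE M21. Capitals mark the CArG box (CC, then 6 bases of A or T, then GG), at -72 from the start, and CRE cores (TGACG or its reverse complement CGTCA), at -111 and -55.
Egr2: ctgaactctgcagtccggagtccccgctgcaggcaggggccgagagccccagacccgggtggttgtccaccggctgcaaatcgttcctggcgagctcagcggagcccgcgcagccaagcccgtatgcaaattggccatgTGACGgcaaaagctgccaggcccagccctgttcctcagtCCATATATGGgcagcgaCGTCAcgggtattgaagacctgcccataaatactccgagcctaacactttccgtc
A 2nd CArG box lay in the window of another Egr2 start, at -72 from it. Of all 32851 promoter windows, 1.63% held a CArG box and 20.8% a CRE core on either strand.

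Of the 3 NR4A receptor genes, 2 were tested and both rose. Nr4a1 (chr15:101254269-101274795), the gene of NUR77, was at 4.23, 3.99 and 3.90 FPKM without stretching and at 10.3, 9.13 and 11.9 FPKM after 4 h of stretch. The groups did not overlap, although the 4H libraries spread more, with a coefficient of variation of 13.3% against 4.28% in the CON group. Nr4a1 had a log2 fold change of 1.26, with a standard error of 0.10 and a limma adjusted p of 2.09e-05, a ratio of 2.59.

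Nr4a2 (chr2:57106830-57124003), the gene of NURR1, was at 10.3, 10.5 and 9.30 FPKM without stretching and at 21.4, 23.7 and 23.6 FPKM after 4 h of stretch. Its log2 fold change was 1.15, with a standard error of 0.06 and a limma adjusted p of 3.49e-06, a ratio of 2.29 between groups that lay far apart. Nr4a3 (chr4:48045153-48086447), the gene of NOR1, was low, at 0.138, 0.0491 and 0.119 FPKM without stretching and at 0.488, 0.365 and 0.235 FPKM after 4 h of stretch. Every 4H value was above every CON value (two-sided exact permutation test, p = 0.1, the smallest that 3 libraries against 3 allow). Its mean of 0.232 FPKM was below the filter. Without the filter its log2 fold change was 0.51 (adjusted p = 0.0172 from limma).

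The NR4A sum was 14.2 ± 0.73 FPKM in CON against 33.7 ± 1.78 FPKM in 4H (SD, n = 3). In contrast to the EGR family, the shares overlapped between the groups, with Nr4a2 at 69.8 to 72.2% of the sum in the CON libraries and at 66.0 to 71.4% in the 4H libraries. The ratio of Nr4a1 to Nr4a2 was 0.404 ± 0.02 and 0.457 ± 0.06 (SD, n = 3), and the lowest 4H value, 0.385, lay within the CON range.

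Upstream sequences of the 3 NR4A genes are shown because each of their windows held 4 CRE cores, and 0.231% of all promoter windows held at least 4, a count made after the matches were seen. The stretches lie before the RefSeq starts and outside GENCODE M21 exons, at chr15:101266596-101266845 (plus strand) for Nr4a1, chr2:57124004-57124253 (minus strand) for Nr4a2 and chr4:48045055-48045152 (plus strand) for Nr4a3. Capitals mark CRE cores and, in Nr4a1 alone, 1 ETS core (CCGGAA, found in 14.9% of all windows).
Nr4a1: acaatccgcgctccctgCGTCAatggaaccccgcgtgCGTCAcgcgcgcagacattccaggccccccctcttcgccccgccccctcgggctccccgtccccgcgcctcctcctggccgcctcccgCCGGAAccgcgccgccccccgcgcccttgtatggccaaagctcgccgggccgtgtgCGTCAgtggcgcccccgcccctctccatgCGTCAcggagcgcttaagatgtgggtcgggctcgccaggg
Nr4a2: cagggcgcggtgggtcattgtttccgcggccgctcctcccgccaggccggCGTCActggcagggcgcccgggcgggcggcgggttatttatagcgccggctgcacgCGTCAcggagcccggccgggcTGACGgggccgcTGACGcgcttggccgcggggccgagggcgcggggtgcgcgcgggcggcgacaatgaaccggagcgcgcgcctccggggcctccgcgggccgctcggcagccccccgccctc
Nr4a3: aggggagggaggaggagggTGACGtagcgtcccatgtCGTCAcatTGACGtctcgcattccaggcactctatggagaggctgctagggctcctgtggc
The last CRE core of Nr4a3, at -147, lies past the end of the stretch shown. The full CRE (TGACGTCA, in 1.79% of all windows) was in the window of none of the 7 members, nor were the EGR site GCGTGGGCG (0.612%) or the NR4A element AAAGGTCA (1.51%), which says only that these letters are not in these windows.

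Of the IER genes, Ier3 rose and Ier2 did not pass the test. Ier3 (chr17:35821684-35822923), also called IEX-1, which acts in apoptosis and stress signaling, was the most abundant member in both groups. It was at 102.0, 86.7 and 96.3 FPKM without stretching and at 270.9, 294.9 and 302.4 FPKM after 4 h of stretch, without overlap. Its log2 fold change was 1.60, with a standard error of 0.06 and a limma adjusted p of 6.56e-07, a ratio of 3.05. By level, Ier3 went from rank 646 to rank 162 of all rows of the table. No CArG box, ETS core or CRE core was in its window.

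Ier2 (chr8:84661331-84662852), a nuclear protein gene, was at 62.4, 58.6 and 60.0 FPKM without stretching and at 63.5, 69.4 and 58.7 FPKM after 4 h of stretch. The groups overlapped, with the lowest 4H library inside the CON range. Its log2 fold change was 0.08 (95% interval -0.06 to 0.21, adjusted p = 0.318 from limma), so a rise as large as that of any other tested member lay outside the interval. The ratio of Ier3 to Ier2 was 1.57 ± 0.08 in the CON group and 4.56 ± 0.52 in the 4H group (SD, n = 3). Among the relatives of Ier2, Ier5 was at 22.1 to 23.7 FPKM in CON against 22.3 to 23.4 FPKM in 4H and did not pass the test (adjusted p = 0.97 from limma), while Ier5l rose from 5.98 ± 0.42 to 8.14 ± 0.70 FPKM (SD, n = 3; log2 change 0.41, limma adjusted p = 0.00391).

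Srf (chr17:46548329-46556175) rose close to 2-fold. It was at 16.5, 16.2 and 16.4 FPKM in the CON libraries, the tightest group of all tested members with a coefficient of variation of 0.857%, against 33.7, 34.2 and 31.8 FPKM in those of 4H. The ratio of the means was 2.03. The log2 fold change was 0.9993 (95% interval 0.90 to 1.10, adjusted p = 9.33e-07 from limma), just below the fold threshold, and over the 16 settings tried it lay between 0.98 and 1.05 and reached 1 in 6 of them. The upstream sequence of Srf is shown because it holds 2 CArG boxes, at -82 and -62, where 0.0183% of all promoter windows held at least 2, a count also made after the matches were seen. The stretch is chr17:46556176-46556412, minus strand, and capitals mark the CArG boxes, 1 ETS core at -122 and 1 CRE core at -201.
Srf: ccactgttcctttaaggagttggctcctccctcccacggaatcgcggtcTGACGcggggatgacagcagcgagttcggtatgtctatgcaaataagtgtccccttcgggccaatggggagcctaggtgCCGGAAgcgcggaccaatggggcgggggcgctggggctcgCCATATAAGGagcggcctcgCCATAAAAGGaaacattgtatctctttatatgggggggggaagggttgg

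**Figure D3:**
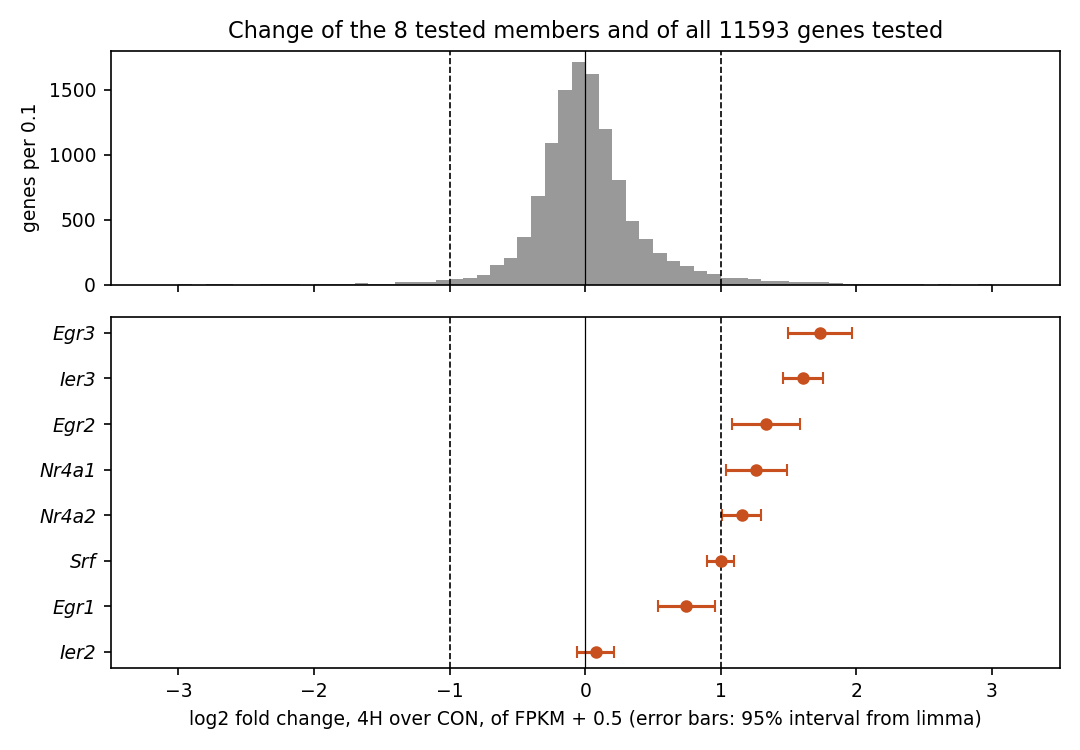
Histogram of the log2 fold changes of all 11593 genes tested, with values beyond 3 in either direction placed in the end bins (top), and the log2 fold change of the 8 tested members with its 95% interval from limma (bottom); dashed lines mark -1 and 1. Egr3 at 1.73 and Ier3 at 1.60 lie farthest to the right, Srf lies on the line at 1, and the interval of Ier2 crosses 0.

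By level, the members of the CON group came in the order Ier3, Ier2, Srf, Egr1, Nr4a2, Nr4a1, Egr2, Egr3, Nr4a3 and Egr4. In this order Egr1 and Nr4a2 (9.60 to 11.2 and 9.30 to 10.5 FPKM) and Egr2 and Egr3 (0.624 to 0.745 and 0.625 to 0.684 FPKM) did not differ beyond their spread. In the 4H group both of these pairs changed places. Nr4a2 (21.4 to 23.7 FPKM) lay above Egr1 (16.4 to 20.1 FPKM), and Egr3 (3.08 to 3.59 FPKM) above Egr2 (2.38 to 2.71 FPKM), without overlap of their ranges. All other members kept their order. No exon of a member is shared with another gene of GENCODE M21, and 0% of the 75-base stretches of their longest transcripts recur in transcripts of other genes.

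The genes around these factors were taken from 8 lists with 96 genes in the table, of which 88 were tested. Across these lists 53 genes rose and 9 fell, where 22.6% of all genes tested were higher and 24.1% lower. The same libraries and the same fit stand behind all of these counts.

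The 30 other immediate early genes all passed the filter, and 24 of them rose, 4 fell and 2 did not pass the test, with a median log2 fold change of 0.79. Zfp36 lost its call without a filter (adjusted p = 0.051 from limma), which left 23 that rose. It also lost it without CON replicate 1 or 3, or 4H replicate 2 or 3 (0.0579 to 0.0803). The AP-1 subunits Fos and Fosb, with CON means of 0.185 and 0.295 FPKM and 4H means of 1.22 and 1.90 FPKM, are among the 24 but reached the filter only through the 4H group, so their calls carry no weight of their own. Phlda1 was at 28.7 ± 0.87 FPKM in CON against 83.6 ± 3.20 FPKM in 4H, and Ccn1, a secreted matricellular protein, at 59.6 ± 4.93 and 165.7 ± 5.61 FPKM (SD, n = 3). Their log2 fold changes were 1.53 and 1.47 (adjusted p = 1.02e-07 and 6.9e-07 from limma). The 4 that fell were Atf3, Myc, Klf4 and Plk2, named after their values were seen, with log2 fold changes of -0.81, -0.48, -0.46 and -0.35. Atf3, a stress-induced repressor, went from 11.95 to 13.3 FPKM in the CON libraries to 5.82 to 8.18 FPKM in the 4H libraries. The proto-oncogene Myc went from 67.1 to 70.6 FPKM to 47.8 to 50.7 FPKM.

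Of the 16 tested cytoskeletal SRF targets, all rose, with a median log2 fold change of 0.72. Myl9, a myosin light chain, rose from 6.60 ± 0.73 to 19.7 ± 2.25 FPKM (SD, n = 3; log2 change 1.51, limma adjusted p = 1.09e-05). Vcl, the focal adhesion protein vinculin, rose from 66.25 ± 2.44 to 161.9 ± 2.51 FPKM (1.28, adjusted p = 1.02e-07), and Tagln, the actin-binding protein transgelin, from 8.86 ± 0.28 to 21.3 ± 1.86 FPKM (1.22, adjusted p = 3.76e-06). With quantile normalization, or without any one library other than CON replicate 1, 15 of the 16 rose, the exception being Acta1, skeletal muscle actin. Among the SRF cofactors, 3 of the 5 tested rose and 1 fell. The ternary complex factor Elk3 rose from 31.3 ± 2.85 to 52.6 ± 2.03 FPKM (log2 change 0.74, limma adjusted p = 4.12e-05) and the coactivator Mrtfb from 7.04 ± 0.38 to 9.51 ± 0.23 FPKM (0.41, adjusted p = 0.000919), while Elk1 fell from 9.47 ± 0.38 to 6.997 ± 0.15 FPKM (-0.41, adjusted p = 0.000665). In the RAF-MEK-ERK-RSK cascade, which feeds the ternary complex factors, 11 of 13 genes did not pass the test, and the median was 0.06. The number that rose was 1, and 2 under 7 of the 15 alternatives, among them those without CON replicate 2 or 4H replicate 3. Without 4H replicate 3 the added gene was Rps6ka1, an RSK kinase, which reached the filter only through the 4H group (means of 0.491 and 0.818 FPKM). Nras rose by a log2 fold change of 0.16 (adjusted p = 0.0148 from limma).

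Among the EGR corepressors and reported EGR targets, 5 of the 9 tested rose and 4 did not pass the test, with a median of 0.26. Fgf2, a fibroblast growth factor, rose from 2.43 ± 0.58 to 7.74 ± 0.29 FPKM (SD, n = 3; log2 change 1.51, limma adjusted p = 6.08e-05), the hyaluronan receptor Cd44 from 101.3 ± 2.76 to 234.3 ± 8.86 FPKM (1.20, adjusted p = 1.66e-07), and the growth factor Pdgfa from 13.5 ± 0.77 to 23.7 ± 1.72 FPKM (0.78, adjusted p = 3.82e-05). The CREB and CRTC list was mixed, with 2 genes that rose, 1 that fell and 6 that did not pass the test. Sik1, a kinase that is itself a CREB target, rose from 2.36 ± 0.50 to 4.91 ± 0.74 FPKM (0.92, adjusted p = 0.00129), Crem rose from 4.60 ± 0.33 to 7.05 ± 1.61 FPKM (0.55, adjusted p = 0.0179), and Atf1 fell from 48.0 ± 0.80 to 39.5 ± 0.82 FPKM (-0.28, adjusted p = 0.000293). The call of Crem was lost without CON replicate 2 (adjusted p = 0.0611 in limma) or 4H replicate 2 (0.0603), which left 1 gene of the list that rose.

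Both tested retinoid X receptors, which pair with NR4A1 and NR4A2, fell. Rxra fell from 14.7 ± 0.42 to 11.6 ± 0.29 FPKM (SD, n = 3; log2 change -0.32, limma adjusted p = 0.000917) and Rxrb from 18.5 ± 0.83 to 13.2 ± 0.16 FPKM (-0.47, adjusted p = 0.000129), while Rxrg was listed at 0 in all 6 libraries. Of 8 NR4A1 metabolic targets of muscle, 4 passed the filter and 2 rose. These were Pfkm, the muscle phosphofructokinase, from 16.2 ± 0.36 to 25.6 ± 1.08 FPKM (0.64, adjusted p = 1.49e-05), and Eno3, the muscle enolase, from 230.1 ± 2.19 to 358.6 ± 11.2 FPKM (0.64, adjusted p = 1.32e-06). Fgf2, Pfkm, Elk1, Pdgfa, Crem, Elk3, Mrtfb, Phlda1, Tagln, Vcl and, among genes named further on, Il4ra, Des, Csf1r and Pdgfra share exon sequence with another gene of GENCODE M21, on either strand, so their FPKM could include reads of that gene. Of their 75-base stretches, 40.9% in Tagln, 38.9% in Vcl, 31% in Phlda1, 17.3% in Csf1r and 11.8% in Fgf2 recur in other genes, on either strand. The rest of these genes had lower shares. Atf1 shares no exon, but 11% of its stretches recur. Braf and Zfp36 were not checked.

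**Figure D4:**
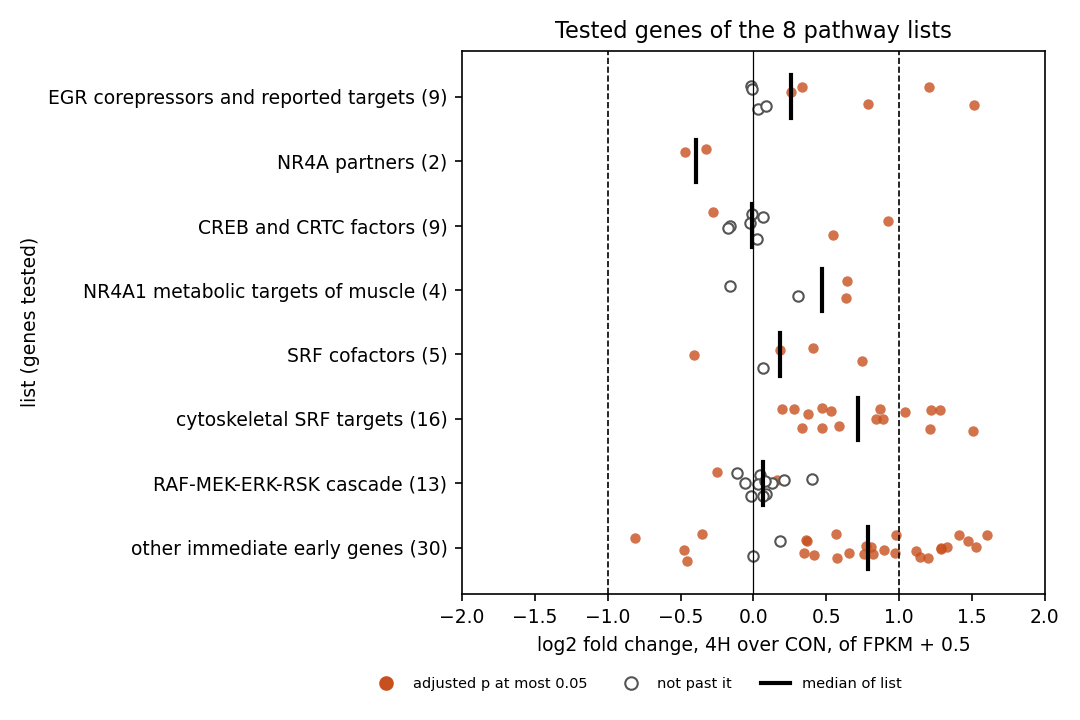
Log2 fold change of each tested gene of the 8 lists, filled where the adjusted p was at most 0.05, with a bar at the median of the list; the vertical position within a list is random. The 16 cytoskeletal SRF targets all lie above 0 with a median of 0.72, and the RAF-MEK-ERK-RSK cascade lies around its median of 0.06.

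The genes whose profile over the 6 libraries was nearest to Egr3, Ier3 and Egr2 were found by the root mean square difference of log2(FPKM + 0.5) after subtracting the CON mean. These 3 members had the highest log2 fold changes, but Nr4a1 and Nr4a2 were above Egr2 with a pseudocount of 1 (1.18 and 1.12 against 1.05), and Nr4a1 was above it with quantile normalization (1.24 against 1.22). The nearest genes included Errfi1 (0.0544) and Nmnat2 (0.0625) for Egr3, and Tm4sf1 (0.0491) and Inhba (0.0968) for Ier3. For Egr2 they were Il4ra (0.0472), Rap1gap (0.0562) and Anxa8 (0.0606). With 2 groups of 3 libraries, such a likeness rests mainly on a similar difference between the groups.

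As a check of the cell type, the myoblast markers Myod1, Myf5 and Des were present in all 6 libraries, and 7 of 8 myoblast markers passed the filter. Myod1 was at 4.48 to 5.55 FPKM in CON against 17.4 to 18.8 FPKM in 4H, Myf5 at 15.3 to 16.8 and 8.75 to 11.0 FPKM, and Des at 70.4 to 72.5 and 87.3 to 91.6 FPKM. The summed level of the 8 myoblast markers went from 176.0 to 180.2 FPKM in the CON libraries to 263.8 to 277.2 FPKM in the 4H libraries. The markers of other cell types had sums in the CON and 4H libraries of 1.797 to 2.40 and 3.09 to 3.74 FPKM for 8 myotube markers, 3.78 to 4.19 and 5.999 to 7.65 FPKM for 5 fibroblast markers, 6.73 to 8.51 and 16.5 to 18.5 FPKM for 4 macrophage markers and 0.057 to 0.112 and 0.147 to 0.261 FPKM for 3 endothelial markers. Of the macrophage markers, Ptprc and Adgre1 were listed at 0 in all 6 libraries, while Cd68, a lysosomal protein, rose from 7.57 ± 0.89 to 16.4 ± 1.29 FPKM (SD, n = 3; log2 change 1.07, limma adjusted p = 4.11e-05). Csf1r, a growth factor receptor, was at 0, 0 and 0.0272 FPKM in CON and at 1.48, 0.966 and 0.792 FPKM in 4H, and passed the filter only through the 4H group. Of the myotube markers, Mymx and Myh8 were listed at 0 in all 6 libraries, and Mymk and Acta1 rose (log2 changes 0.57 and 0.59, limma adjusted p = 0.0194 and 0.0235). Myog, the gene of the muscle differentiation factor myogenin, was too low to test and lay the other way, at 0.281, 0.136 and 0.235 FPKM in CON and at 0.0794, 0 and 0 FPKM in 4H. Of the other untested myotube markers, Tnnt3 was higher in 4H without overlap (0.293 to 0.613 FPKM against 0 to 0.143 FPKM), and Myh3 and Ckm overlapped between the groups. Mymk and Acta1 lost their call with quantile normalization (adjusted p = 0.0578 and 0.0545) and without some single libraries, Mymk without CON replicate 1 or 4H replicate 2 (adjusted p = 0.053 and 0.0596), and Acta1 without any one library other than CON replicate 1 (0.0545 to 0.0595). The fibroblast marker Pdgfra rose as well (log2 change 0.62, limma adjusted p = 0.000753). The part of these markers in the changes of the immediate early genes was not tested, and in bulk RNA more cells with a transcript and more transcript per cell cannot be told apart.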

How the data were processed

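RNA-seq of C2C12 cells from 3 CON and 3 4H libraries was analysed. Total RNA was poly(A)-selected and made into strand-specific libraries for paired-end sequencing. FPKM was the unit deposited by the authors, in 1 table with a column for each library and no pooled replicates. The submitters' processing notes name mm10, while the aligner, counting tool and annotation were not given in the sources used here. The libraries titled 4H1, 4H3 and 4H4 are called 4H replicates 1, 2 and 3, after the biosample numbers of the labels. FPKM summed to between 385146 and 397260 per library, and no 2 columns were identical. FPKM does not hold fragment numbers, so no counting error is given. From 12 to 23 genes under 0.1 FPKM per pair, the relative depth of the 15 pairs of libraries was estimated to differ by at most 1.58%. Only small differences were searched, so a large one could not have shown. Rows above 0 numbered 14125 to 14186 in the CON libraries and 14899 to 14972 in the 4H libraries.

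FPKM is not a count, so the study's DESeq2 was replaced by limma 3.58.1 in R 4.3.3 (lmFit, eBayes with a trend) on log2(FPKM + 0.5) for genes whose mean over the 6 libraries reached 0.5 FPKM, two-sided, with Benjamini-Hochberg adjustment over all genes tested. The thresholds, a log2 fold change of 1 and an adjusted p of 0.05, are those of the study. The fit was tested on simulated data. The members and the lists were chosen with earlier results of these data known, so lists are described by counts and medians with no set test. Named genes were all members, the 3 genes of each list with the largest change among those that passed (Ier5, Ier5l, Fos, Rxrg, Rps6ka1, the 4 immediate early genes that fell and all marker genes other than Myod1, Myf5 and Des were named after their values were seen) and the 3 nearest profiles of each of 3 members, of which some are not reported here. Promoters came from the RefSeq table of GRCm38.p6, and exons and transcripts from GENCODE M21. Windows of Egr1, Egr3 and Ier2 were not among those used, so the motif statements do not cover these members. Alternatives were pseudocounts of 0.1 and 1, no filter and a filter at 1 FPKM, quantile normalization, rescaling to TPM, size factors by median of ratios, no trend, a replicate block and each library left out. Other steps used SciPy 1.17.1, matplotlib 3.10.9, numpy 2.4.6 and pandas 2.3.3 in Python 3.11.15.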

Additional observations from a re-analysis of the deposited data

How the results depend on the processing

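The direction and the side of the adjusted p threshold were kept by all 8 tested members under the 15 alternatives, Ier2 staying short of it throughout (adjusted p from 0.0673 to 0.81 in limma). The number of members that rose was 7, or 8 without a filter, where Nr4a3 passed as well, and with libraries rescaled to TPM, where Nr4a3 reached the filter only through its 4H level, so that its call carries no weight. The number differentially expressed was 5 or 6. The 6th was Srf, whose log2 fold change of 0.9993 passed 1 with a pseudocount of 0.1 (1.02), rescaling (1.05), quantile normalization (1.02), and without CON replicate 1 (1.00), CON replicate 3 (1.00) or 4H replicate 3 (1.03). For Egr2 and Egr3, the low members, the log2 fold change ranged from 1.05 to 1.72 and from 1.39 to 2.19 between pseudocounts of 1 and 0.1. Over all genes tested, the number differentially expressed was 450, and 703 with rescaling. Rescaling raised the levels while the pseudocount and the filter stayed the same, so it also acted like a lower pseudocount and filter. A pseudocount of 0.1 alone gave 591. The part of library scaling itself in the 703, and in the values of Srf and Nr4a3 with rescaling, was not tested. With the replicate number as a block, 7 members still rose and the log2 fold changes did not move. Deviations of same-numbered CON and 4H libraries correlated at 0.025, -0.093 and -0.126, so the biosample numbers were not taken as pairs, and the block changed no call of a member. The libraries titled C3 and 4H3, which are CON replicate 3 and 4H replicate 2, correlated at 0.176. Pairing by title was not tested. The precision of the low members is limited by unknown fragment numbers.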
